A study of Homo sapiens with 18 samples.

Results

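Ribosome biogenesis is the making of ribosomal subunits, which starts in the nucleolus. RNA polymerase I transcribes a long precursor RNA there, box C/D and H/ACA ribonucleoproteins guide its methylation and pseudouridylation, and a large set of processing and assembly factors cut it, fold it and escort the growing subunits to the cytoplasm. Many of these genes are transcriptionally activated by MYC and are highly expressed in growing cancer cells. A set of 46 such genes was chosen by name from general knowledge of the process, with results on these samples already known. They comprise box C/D and H/ACA core proteins, nucleolar chaperones and multifunctional nucleolar proteins, large and small subunit factors and subunits of RNA polymerase I. In the annotation used, 43 of the 46 were paired with a probe, and 41 could be tested, out of 20046 genes named by a probe and 11680 tested.

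The cells were of the established lung cancer line NCI-H2347, of human origin. All 6 groups grew in RPMI with 5% FBS and changed medium 24 hours after plating. They then received 50 µM pioglitazone, a thiazolidinedione agonist of the nuclear receptor PPARG, or its solvent DMSO as vehicle, for 12, 24 or 48 h. Each group had 3 arrays, 18 in all, of the Illumina HumanHT-12 v4 BeadChip, so the study has 1 cell line, 1 dose and no second agonist. Whether the replicates were grown separately is not stated, and the p-values therefore cover the spread between arrays, which may be technical. Values are normalised log2 signals, differences are pioglitazone minus vehicle at the same time, and a gene passed the test at a limma adjusted p under 0.05 over all 11680 genes. With bulk RNA, fewer cells of a kind and less RNA per cell cannot be told apart.

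Each array detected 17040 to 18880 of 47323 probes. Arrays of a group correlated at 0.973 to 0.995 across genes, and arrays of different groups at 0.941 to 0.988. The signal of undetected probes put the arrays into 2 classes, 11 arrays at 101.8 to 113.2 and 7 at 137.7 to 153.4. The higher class held all 6 arrays of 24 h and replicate 3 of pioglitazone at 48 h, so pioglitazone and vehicle shared a class at 12 h and at 24 h but not fully at 48 h. Epithelial markers were present as the label implies, with EPCAM, KRT8, KRT18, KRT19, KRT7, CDH1 and CLDN7 detected on all 18 arrays. PTPRC, CD3E and HBB of blood, PECAM1, CDH5 and KDR of endothelium, and PDGFRB and THY1 of fibroblasts were detected on 0 arrays. The fibroblast markers COL1A1 and COL1A2 were detected on all arrays. COL1A1 was lower under pioglitazone at 12 h (−0.85, limma adjusted p = 0.000438) and higher at 48 h (0.40, adjusted p = 0.0219), with −0.25 at 24 h (adjusted p = 0.162), and COL1A2 gave −0.22, −0.56 and −0.30 without passing. Of the 8 epithelial markers, CDH1 was higher at the 3 times (0.48, 0.55 and 0.71), KRT7 at 12 and 48 h (0.43 and 0.59) and CLDN4 at 24 h (0.73). EPCAM (−0.21, −0.11 and −0.13) and KRT18 (−0.57, −0.34 and −0.26) were below 0 without passing, and KRT8, KRT19 and CLDN7 did not pass. The endothelial marker VWF, detected on some arrays, was higher at 24 h (0.52). The part of these marker shifts in the results below was not tested.

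Pioglitazone lowered a large share of the ribosome biogenesis genes, most of them at 24 h. At 12 h 7 of the 41 members (17.1%) were lower and 0 higher, against 4.48% of all genes tested that were lower and 4.32% that were higher. At 24 h 20 members (48.8%) were lower and 1 was higher, beside 12.8% and 10.5% of all genes. At 48 h 14 members (34.1%) were lower and 0 higher, where 15.4% of all genes were lower and 14.3% higher. The 23 members lower at 1 or more times spanned every role except RNA polymerase I.

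Most falls were modest in size. The median difference of the 41 members was −0.20 at 12 h, −0.37 at 24 h and −0.25 at 48 h, and the median of all genes was −0.0039, −0.02 and 0.01. Differences were below 0 for 36, 38 and 34 of the 41 members at the 3 times (87.8%, 92.7% and 82.9%), while 50.7%, 52.8% and 48.7% of all genes were below 0. At least 1.5-fold lower and past the test were 1, 10 and 5 members, and at least 2-fold lower were 0, 3 and 3. The share of all genes past these fold cuts was not counted, so these counts describe size only. All 3 treated arrays lay below all 3 vehicle arrays for 21 members at 12 h, 27 at 24 h and 21 at 48 h. The same ordering held for 17.4%, 25.1% and 19.1% of all genes. All but 2 of the tested members were detected on all 18 arrays, MYBBP1A and POLR1A being detected on 17. The median standard error of a member's difference was 0.13. Leaving out any 1 of the 6 arrays of 12 h took the count at that time from 7 to between 2 and 4. The count of all genes lower at 12 h then went from 523 to between 281 and 374. With 1 array left out there were 15 to 19 lower members at 24 h and 11 to 16 at 48 h. Of all genes, 1020 to 1378 were then lower at 24 h, in place of 1499, and 1468 to 1876 at 48 h, in place of 1800. The fit of the 48 h arrays alone gave 6 lower members and 833 lower genes.

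**Figure D1:**
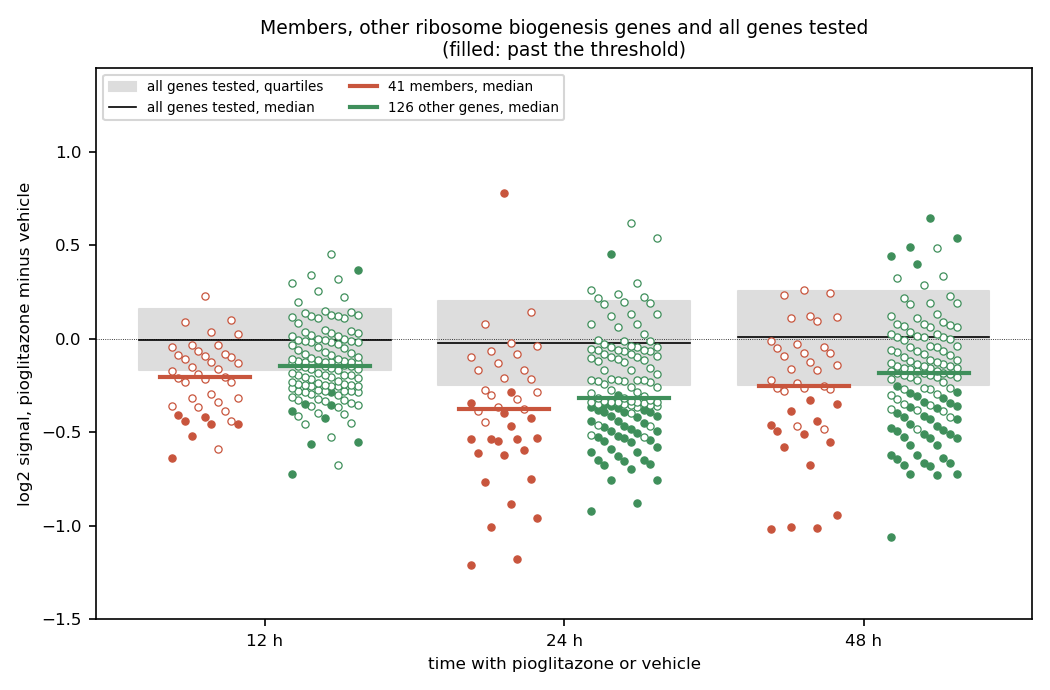
The log2 difference between pioglitazone and vehicle (y axis) at 12, 24 and 48 h (x axis) is plotted for the 41 tested members (red) and 126 other ribosome biogenesis genes (green), with filled points past the test and thick lines at the medians. Grey boxes span the quartiles of all 11680 genes tested; the member medians of −0.20, −0.37 and −0.25 lie below the median of all genes at each time.

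Over time, 5 members were lower at 12, 24 and 48 h: RRS1, NOP2, NIP7, BRIX1 and RRP12, of which all but RRP12 belong to the large subunit factors. A further 7 were lower at 24 and 48 h only, namely NOP56, NPM3, LYAR, BOP1, NOC3L, UTP15 and HEATR1. RRP15 was lower at 12 and 24 h, and NOP58 at 12 h alone. The 7 members lower at 24 h alone were DKC1, GAR1, NOLC1, DDX21, GNL2, LTV1 and BYSL, and the 2 at 48 h alone were FBL and NOP10. WDR74 was higher at 24 h, and 17 members passed the test at no time. Passing at 1 time and not at another does not show that the effects differ between times, which was tested separately and is given after the roles.

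Promoters are shown here for the E-box CACGTG, a palindrome that reads the same on both strands. MYC and its partner MAX are known to bind this sequence. RefSeq windows of GRCh38.p14, from 250 bases before to 50 bases after the gene's start, were matched by symbol for 40 of the 46 members, taking the first listed window of a gene. NOP58, NOLC1, RRS1, BOP1, RRP1B and RRP12 had no match. CACGTG occurred in 13 of the 40 windows (32.5%) and in 2030 of the 27305 windows of all genes (7.43%). These sets are unlike, since the windows of all genes include genes without a probe or not tested here. The members come from a process that MYC is known to activate, and no test compared the shares. Among lowered members it occurred in 7 of 18 (38.9%), and among the other tested members in 3 of 17 (17.6%). The 5 windows below were chosen for holding CACGTG, from the lowered members with the lowest difference at 24 h among those that hold it. LYAR, UTP15, BRIX1 and NIP7, whose differences at 24 h were lower than those of LTV1, BYSL and GNL2, had windows without it. The motif is in capitals, and each sequence is written 5′ to 3′ on the strand of the gene. The windows are those of NOC3L (chr10:94362890-94363189, minus strand), NOP2 (chr12:6568242-6568541, minus strand), LTV1 (chr6:143843088-143843387, plus strand), BYSL (chr6:41921249-41921548, plus strand) and GNL2 (chr1:37595888-37596187, minus strand).
NOC3L: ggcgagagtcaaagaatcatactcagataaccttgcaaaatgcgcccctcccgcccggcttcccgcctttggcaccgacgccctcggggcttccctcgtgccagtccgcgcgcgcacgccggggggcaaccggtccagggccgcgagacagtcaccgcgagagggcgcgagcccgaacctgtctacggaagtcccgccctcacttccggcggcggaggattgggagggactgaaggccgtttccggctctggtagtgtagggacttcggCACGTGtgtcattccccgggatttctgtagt
NOP2: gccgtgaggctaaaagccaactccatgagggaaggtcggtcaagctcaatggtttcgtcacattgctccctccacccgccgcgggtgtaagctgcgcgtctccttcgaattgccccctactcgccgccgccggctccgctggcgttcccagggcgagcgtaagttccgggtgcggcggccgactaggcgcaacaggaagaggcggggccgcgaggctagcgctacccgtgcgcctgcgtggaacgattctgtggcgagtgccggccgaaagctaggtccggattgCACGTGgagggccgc
LTV1: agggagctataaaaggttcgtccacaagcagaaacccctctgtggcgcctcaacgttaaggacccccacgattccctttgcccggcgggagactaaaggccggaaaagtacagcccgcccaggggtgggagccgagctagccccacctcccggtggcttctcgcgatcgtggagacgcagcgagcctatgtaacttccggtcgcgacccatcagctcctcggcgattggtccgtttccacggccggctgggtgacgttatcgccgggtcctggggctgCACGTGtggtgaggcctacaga
BYSL: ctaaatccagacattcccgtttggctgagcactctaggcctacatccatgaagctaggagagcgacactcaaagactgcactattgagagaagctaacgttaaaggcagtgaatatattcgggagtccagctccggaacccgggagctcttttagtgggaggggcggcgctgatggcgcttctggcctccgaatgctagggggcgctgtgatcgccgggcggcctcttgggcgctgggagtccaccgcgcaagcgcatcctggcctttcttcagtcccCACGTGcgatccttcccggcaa
GNL2: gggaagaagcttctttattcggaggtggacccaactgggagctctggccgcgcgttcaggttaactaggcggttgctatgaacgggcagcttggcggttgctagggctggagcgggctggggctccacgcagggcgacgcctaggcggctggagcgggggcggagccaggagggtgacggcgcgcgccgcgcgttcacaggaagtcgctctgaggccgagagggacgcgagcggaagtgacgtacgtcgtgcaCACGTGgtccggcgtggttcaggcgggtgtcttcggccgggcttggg
In these 5 windows the motif began at base 270, 286, 279, 279 and 254 of 300, counted from 1 at the 5′ end, which places it in each case after the 250 bases that precede the annotated start. A match is a stretch of letters and not a measured binding site.

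Large subunit factors, the role with the most tested members, held the largest number of lowered members. Of the 17 listed, 15 were tested, and 5 were lower at 12 h, 8 at 24 h (with 1 higher) and 6 at 48 h. Their median differences were −0.32, −0.38 and −0.35. RRS1, a factor that takes part in placing the 5S ribonucleoprotein on the large subunit precursor, was lower at each time. At 12 h its log2 signal was 10.19, 10.19 and 9.96 on the vehicle arrays and 9.43, 9.33 and 9.67 on the pioglitazone arrays. The groups did not overlap, and the difference was −0.64 (SE 0.10, 1.56-fold lower, limma adjusted p = 0.000925). At 24 h the vehicle arrays read 10.23, 10.28 and 10.28 and the treated arrays 9.35, 9.13 and 9.30, a wider gap of −1.01 (SE 0.10, 2.01-fold lower, adjusted p = 4.63e-06). At 48 h the values were 10.20, 10.29 and 10.22 against 9.57, 9.52 and 9.59, a difference of −0.68 (adjusted p = 0.000105). The vehicle arrays thus stayed between 9.96 and 10.29 over the 3 times, and every treated array lay at 9.67 or below. RRS1 kept its call at the 3 times under every alternative setting run.

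NOP2, a nucleolar methyltransferase of the large subunit's ribosomal RNA, fell at each time too. Its vehicle arrays read 10.67, 10.69 and 10.86 at 12 h and its treated arrays 10.34, 10.17 and 10.35. This gap of −0.45 (SE 0.13, adjusted p = 0.0432) was close to the threshold, and 10 of 17 alternatives took it to the other side. At 24 h the values were 10.49, 10.42 and 10.50 with vehicle and 9.36, 9.91 and 9.50 with pioglitazone, a difference of −0.88 (1.85-fold lower, adjusted p = 0.000169). At 48 h vehicle read 11.13, 11.23 and 11.33 and pioglitazone 10.45, 10.17 and 10.03. This separation of −1.01 (2.02-fold lower, adjusted p = 2.17e-05) was reached with vehicle itself higher than at 12 h by 0.49 (adjusted p = 0.0123). Of 2 other kept probes of NOP2, neither changed direction, with −0.61 and −0.81 at 24 h and −0.89 and −0.997 at 48 h. At 12 h they gave −0.25 and −0.15 and did not pass (limma adjusted p = 0.261 and 0.541 over all kept probes).

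NOC3L, whose yeast counterpart accompanies large subunit precursors out of the nucleolus, had the lowest difference of any member at 24 h. Vehicle arrays read 9.48, 9.34 and 9.27 and treated arrays 8.31, 8.14 and 8.03. The groups stood well apart, with a difference of −1.21 (SE 0.16, 2.31-fold lower, adjusted p = 3.59e-05). At 48 h the values were 9.22, 9.64 and 9.54 against 8.44, 8.21 and 8.73, a difference of −1.01 (2.01-fold lower, adjusted p = 0.000106). At 12 h vehicle read 9.34, 9.26 and 9.48 and pioglitazone 9.22, 9.19 and 8.73. The arrays were ordered the same way there, but the difference of −0.32 did not pass (adjusted p = 0.239).

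BRIX1 and NIP7, an assembly factor and a pre-rRNA processing factor, passed at each time. BRIX1 read 11.40, 11.17 and 11.51 with vehicle and 10.95, 11.06 and 10.51 with pioglitazone at 12 h (difference −0.52, SE 0.13, adjusted p = 0.0178, lost under 4 of 17 alternatives). At 24 h it read 11.80, 11.72 and 11.85 against 11.04, 11.02 and 11.01 (−0.77, 1.70-fold lower, adjusted p = 0.000449). The 3 treated arrays of 24 h lay close together and well below vehicle, whose mean at 24 h was itself 0.43 above that at 12 h. At 48 h the BRIX1 difference was −0.46 (adjusted p = 0.0127), and a second BRIX1 probe gave −0.70, −0.79 and −0.48 at the 3 times. NIP7 read 10.22, 10.35 and 10.24 with vehicle and 9.78, 9.76 and 9.90 with pioglitazone at 12 h (−0.46, SE 0.11, adjusted p = 0.0174). At 24 h NIP7 read 9.95, 9.91 and 10.06 against 9.16, 9.30 and 9.21 (−0.75, 1.68-fold lower, adjusted p = 0.000172), and its groups stood furthest apart then. At 48 h NIP7 read 10.45, 10.54 and 10.75 against 10.08, 10.17 and 9.75 (−0.58, adjusted p = 0.000969). The lowest of these treated values came from replicate 3, the array of the higher background class.

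RRP15, named for its yeast counterpart in pre-rRNA processing, read 9.84, 9.81 and 9.93 with vehicle and 9.56, 9.56 and 9.20 with pioglitazone at 12 h. Its groups did not overlap at 12 h (−0.42, SE 0.11, adjusted p = 0.0239), but replicate 3 lay apart from the other treated arrays. The difference was −0.53 at 24 h (adjusted p = 0.00226) and −0.26 at 48 h (adjusted p = 0.0801). Leaving out pioglitazone replicate 3 or any of the 3 vehicle arrays ended the 12 h call. BOP1, PES1 and WDR12 are the 3 subunits of the PeBoW complex of large subunit maturation, and no test set them against each other. BOP1 was lower at 24 h (−0.35, adjusted p = 0.0165, lost under 5 of 17 alternatives) and 48 h (−0.35, adjusted p = 0.0122). PES1 gave −0.28 and −0.47 at these times and WDR12 −0.30 and −0.04, and neither passed at any time. A second WDR12 probe gave −0.37 at 24 h and −0.34 at 48 h (limma adjusted p = 0.0148 and 0.0188 over all kept probes). GNL2, a nucleolar GTPase, passed at 24 h alone with a small difference of −0.28 (adjusted p = 0.033), and 7 of 17 alternatives ended the call. RRP1B, NOC2L, GNL3L and PPAN passed at no time, with differences between −0.48 and 0.11, and a second GNL3L probe gave −0.06 at 48 h where the first gave 0.11. A PPAN read-through transcript shares its exons, so the PPAN value is uncertain.

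WDR74, whose yeast counterpart is a factor of early large subunit precursors, was the only tested member that was higher. At 24 h vehicle arrays read 6.09, 6.16 and 6.08 and treated arrays 6.87, 7.08 and 6.73. The groups did not overlap, and the difference was 0.78 (SE 0.19, 1.72-fold higher, adjusted p = 0.00651). At 12 h the values were 5.64, 6.10 and 5.84 against 5.88, 5.92 and 6.47, and at 48 h 6.09, 6.10 and 6.64 against 6.29, 6.74 and 6.17. The groups overlapped at both of these times (0.23 and 0.12, adjusted p = 0.523 and 0.662). Its signal was low on the array's scale, and without background correction the 24 h difference shrank to 0.36 and still passed.

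**Figure D2:**
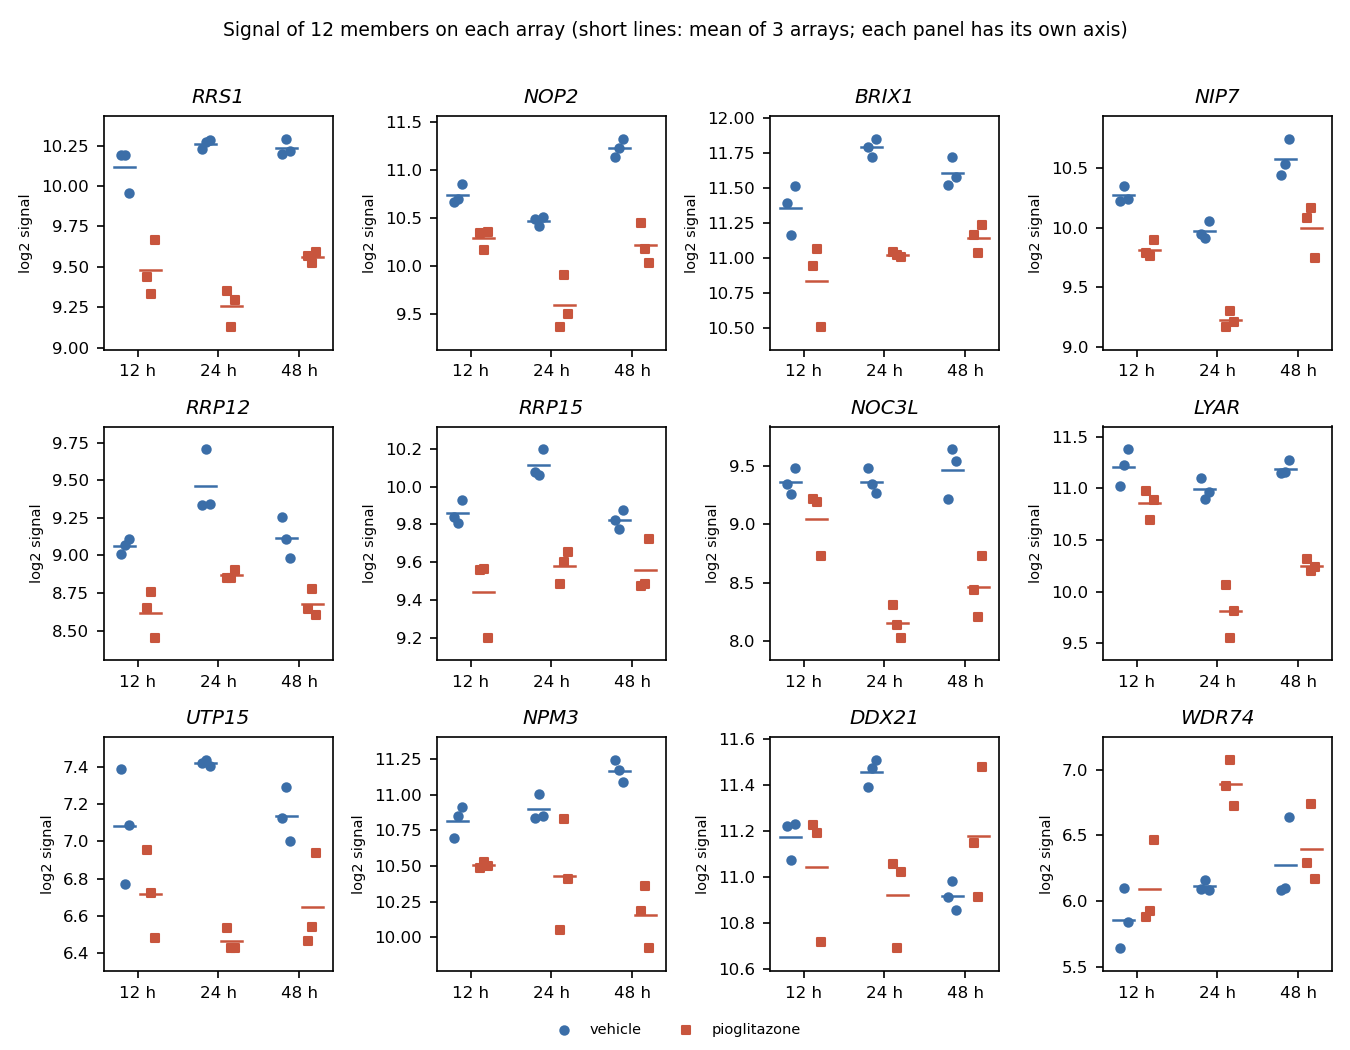
Normalised log2 signal (y axis) of 12 members on each of the 18 arrays at 12, 24 and 48 h (x axis), with vehicle as blue circles, pioglitazone as red squares and short lines at the mean of 3 arrays. For RRS1, NOP2, NIP7, BRIX1, RRP12, RRP15, NOC3L, LYAR and NPM3 every treated array lies below every vehicle array at each time; the WDR74 groups separate upward at 24 h, and the DDX21 groups separate downward at 24 h and overlap at 12 and 48 h.

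Among the small subunit factors 9 of 11 were tested, and 1, 5 and 3 were lower at 12, 24 and 48 h, with medians of −0.07, −0.40 and −0.14. RRP12, whose yeast counterpart takes part in the export of both subunits, was lower at each time. It read 9.01, 9.07 and 9.11 with vehicle and 8.65, 8.76 and 8.45 with pioglitazone at 12 h (−0.44, SE 0.12, adjusted p = 0.0232). It read 9.33, 9.71 and 9.34 against 8.85, 8.85 and 8.90 at 24 h (−0.59, 1.51-fold lower, adjusted p = 0.00142). The groups were clear of each other at both times, and the 48 h difference was −0.44 (adjusted p = 0.00799). Leaving out any of 5 of the 6 arrays of 12 h ended the RRP12 call at that time.

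UTP15, a component of the processome that binds the nascent precursor, had the lowest difference of the small subunit factors. At 24 h its vehicle arrays read 7.42, 7.44 and 7.40 and its treated arrays 6.54, 6.43 and 6.43. Each group lay within a narrow band, and the difference was −0.96 (SE 0.16, 1.94-fold lower, adjusted p = 0.00034), which shrank to −0.52 without background correction. At 48 h it read 7.13, 7.29 and 7.0015 against 6.46, 6.54 and 6.94 (−0.49, adjusted p = 0.0244), with treated replicate 3 next to the vehicle arrays, and 5 of 17 alternatives ended this call. HEATR1, of the same subcomplex of the processome, was at −0.03 at 12 h, −0.40 at 24 h (adjusted p = 0.0389) and −0.55 at 48 h (adjusted p = 0.00474). The 24 h call of HEATR1 was lost under 7 of 17 alternatives. LTV1 and BYSL, which act late in small subunit maturation, were lower at 24 h alone (−0.62 and −0.54, adjusted p = 0.0015 and 0.00323). NOB1, the endonuclease that makes the end of mature 18S rRNA, and TSR1, NOC4L and WDR75 passed at no time. The NOB1 differences were 0.04, 0.08 and 0.24. Those of NOC4L were 0.09, 0.14 and 0.12, and its second probe was below 0 at 24 and 48 h (−0.03 and −0.17).

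The nucleolar chaperones and multifunctional proteins had 6 of 7 members tested. At 12, 24 and 48 h respectively, 0, 4 and 2 of them were lower, with medians of −0.22, −0.45 and −0.16. LYAR, a zinc finger nucleolar protein known for promoting cell growth, read 11.10, 10.90 and 10.97 with vehicle and 10.06, 9.55 and 9.81 with pioglitazone at 24 h. The gap was −1.18 (SE 0.13, 2.26-fold lower, adjusted p = 7.11e-06). At 48 h LYAR read 11.15, 11.16 and 11.27 against 10.31, 10.20 and 10.23, again far apart (−0.94, 1.92-fold lower, adjusted p = 2.66e-05). At 12 h it read 11.02, 11.23 and 11.38 against 10.97, 10.70 and 10.89, where the groups nearly touched (−0.36, adjusted p = 0.0945). Its second probe gave −0.30, −1.06 and −0.81.

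NPM3, a histone chaperone of the nucleoplasmin family, fell most at 48 h. Its values were 11.25, 11.17 and 11.09 with vehicle and 10.18, 10.36 and 9.92 with pioglitazone. The difference was −1.02 (SE 0.15, 2.02-fold lower, adjusted p = 8.4e-05), the lowest of any member at that time. At 24 h it read 10.84, 11.005 and 10.85 against 10.05, 10.83 and 10.41 (−0.47, adjusted p = 0.0342). Treated replicate 2 lay next to the vehicle arrays there, and 8 of 17 alternatives ended the 24 h call. NOLC1, a snoRNP chaperone, was lower at 24 h alone (−0.42, adjusted p = 0.0194). NCL, the abundant nucleolar protein nucleolin, gave −0.04, −0.32 and −0.26 without passing, while its second probe gave −0.52 at 24 h. MYBBP1A gave −0.59, −0.37 and −0.03 with a standard error of 0.30 and did not pass.

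DDX21, an RNA helicase of the nucleolus, moved differently at 24 and 48 h. At 24 h it read 11.39, 11.47 and 11.51 with vehicle and 11.06, 10.69 and 11.02 with pioglitazone, so that the treated arrays lay lower (−0.53, SE 0.15, adjusted p = 0.0157). At 48 h it read 10.91, 10.99 and 10.86 against 11.15, 10.92 and 11.48, overlapping groups with a difference of 0.26 (adjusted p = 0.205). At 12 h it read 11.22, 11.07 and 11.23 against 11.23, 11.19 and 10.72 (−0.13, adjusted p = 0.672). The 48 h treated array with the highest value was replicate 3, of the higher background class.

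Of the 4 box C/D proteins 1, 1 and 2 were lower at the 3 times, with medians of −0.30, −0.24 and −0.33. NOP58 passed at 12 h (−0.41, SE 0.10, adjusted p = 0.0162) and was at −0.27 at both later times (adjusted p = 0.0585 and 0.0546). NOP56 passed at 24 h (−0.61, 1.53-fold lower, adjusted p = 0.000689) and at 48 h (−0.51, adjusted p = 0.0019). Its 2 other probes were also below 0 at each time, at −0.69 and −0.36 at 24 h. FBL, the methyltransferase fibrillarin, passed at 48 h (−0.38, adjusted p = 0.0138), but not without treated replicate 3. RRP9, a U3-specific protein, passed at no time. Of the 4 H/ACA proteins 0, 2 and 1 were lower, with medians of −0.18, −0.35 and −0.24. DKC1, the pseudouridine synthase, and GAR1 were lower at 24 h alone (−0.54 and −0.55, adjusted p = 0.00326 and 0.000951). NOP10 passed at 48 h (−0.33, adjusted p = 0.0175), a call that 4 of 17 alternatives ended, and NHP2 at no time, with a second probe above 0 at 24 h (0.01). Of the other 3 GAR1 probes, all were below 0 at 24 h (−0.46, −0.45 and −0.56), while 2 were above 0 at 12 h (0.15 and 0.03).

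No tested subunit of RNA polymerase I passed at any time. POLR1A, the largest subunit, gave −0.23, −0.17 and −0.17 (SE 0.23), POLR1B −0.12, −0.04 and −0.09 (SE 0.15), and POLR1C, which RNA polymerase III shares, −0.09, −0.08 and −0.01 (SE 0.10). Second probes differed in sign for POLR1B at 12 h (0.10) and POLR1C at 24 h (0.02). By an unadjusted limma p under 0.05, 12, 25 and 22 of the 41 members of all roles passed at the 3 times. The share of all genes at this cut was not counted, so these counts have no baseline here.

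**Figure D3:**
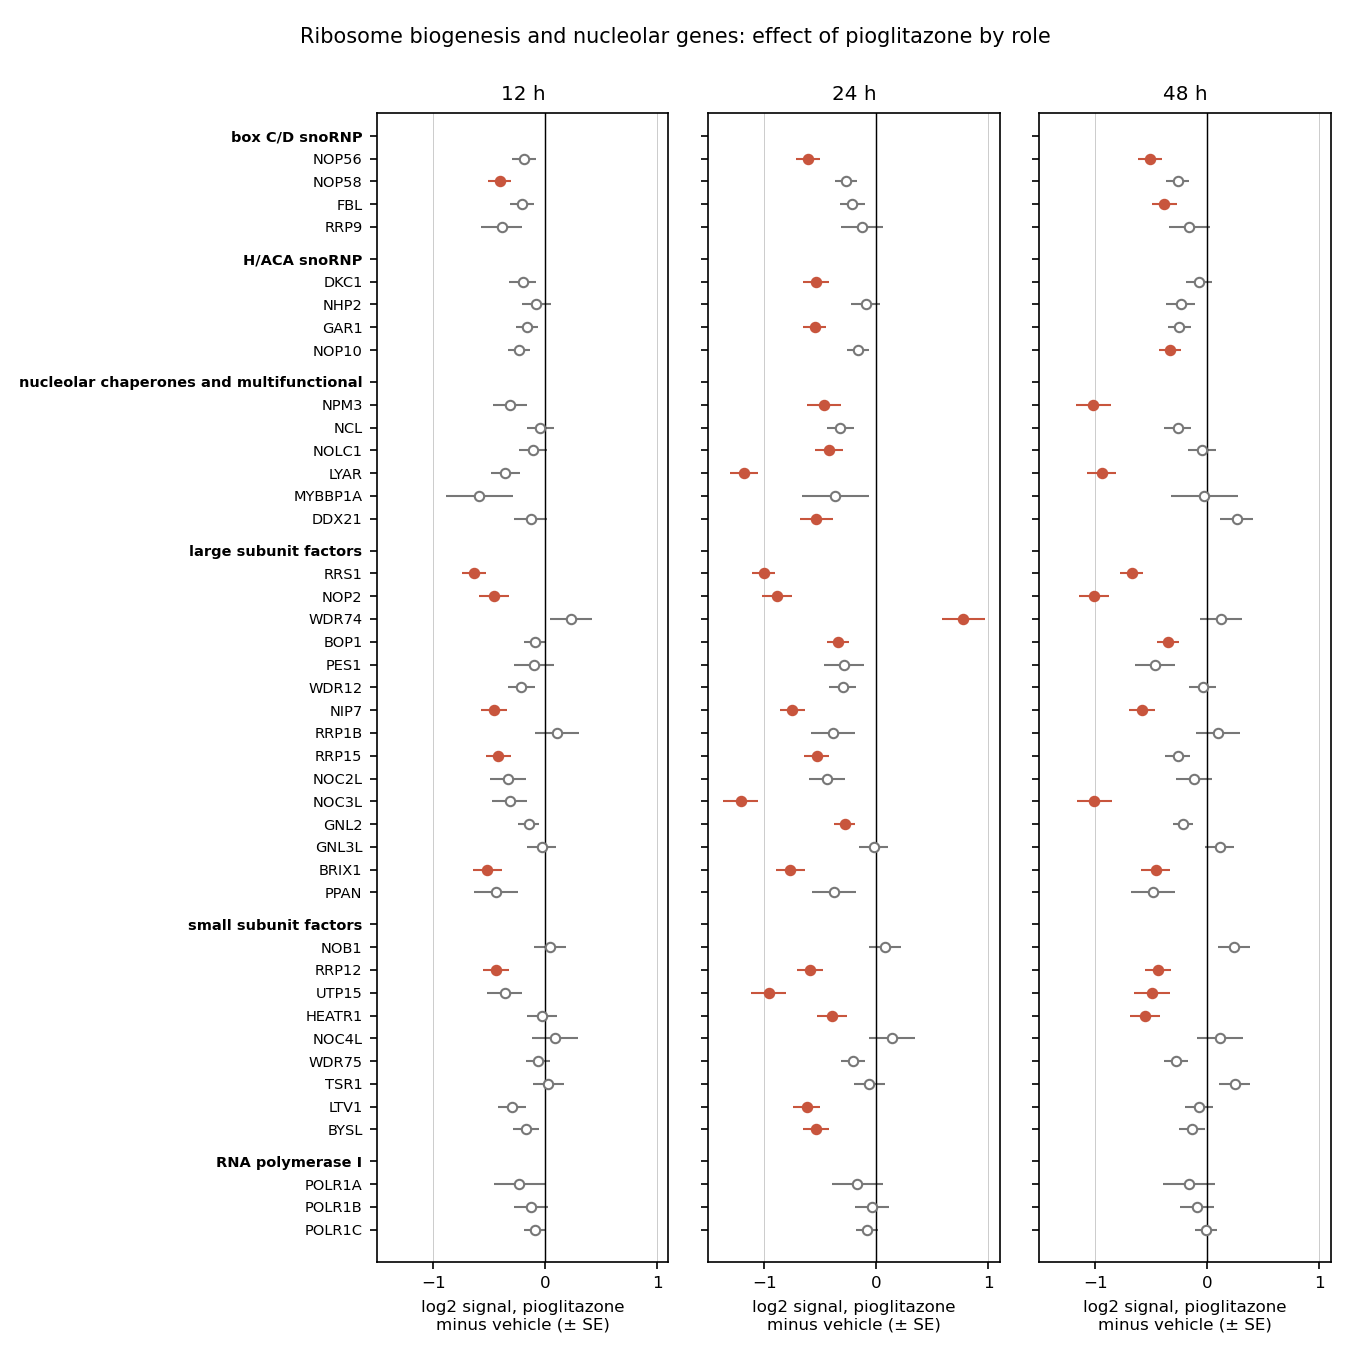
The log2 difference between pioglitazone and vehicle (x axis, with its standard error as a bar) is drawn for each of the 41 tested members (y axis, grouped by role) at 12, 24 and 48 h; filled red points passed the test and open points did not. WDR74 at 24 h is the only filled point right of 0, and the RNA polymerase I subunits have none.

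The 5 members not tested were of 2 kinds. NPM1, the abundant chaperone nucleophosmin, had 1 probe that was detected on 0 arrays, and UTP20 had 3 probes that were detected on at most 2 arrays. GNL3, EBNA1BP2 and WDR43 were not analysed here because the annotation used pairs no probe with these symbols.

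The difference between the effects at 2 times was tested for every member. Between 12 and 24 h LYAR alone passed, its effect at 24 h being lower by −0.82 (SE 0.18, limma adjusted p = 0.0435), in a comparison that called 0.693% of all genes. Between 24 and 48 h DDX21 alone passed, its effect at 48 h being higher by 0.80 (SE 0.21, adjusted p = 0.0482), where 3.41% of all genes passed. Between 12 and 48 h 0 members passed in limma, while 9.1% of all genes passed. There 5 members had an unadjusted p under 0.05, a cut at which the share of all genes was not counted. The nearest in these comparisons were LYAR (−0.59, adjusted p = 0.0503) and NPM3 (−0.70, adjusted p = 0.0512) between 12 and 48 h. Each of these comparisons shares arrays with the effects above, and the calls for LYAR and DDX21 were each lost under 13 of 22 alternatives. The larger number of lowered members at 24 h than at 12 h is therefore a count at each time, with a tested difference for LYAR alone.

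Vehicle levels moved over the time course as well. Against vehicle at 12 h, 6 members (14.6%) were lower and 5 (12.2%) higher in vehicle at 24 h, beside 16.5% and 20.1% of all genes. Both shares were smaller among the members than among all genes. The lower ones were FBL, NOLC1, BOP1, PES1, NIP7 and GNL3L, led by PES1 (−0.80, adjusted p = 0.00265). The higher ones were BRIX1, RRP12, TSR1, BYSL and POLR1B, led by TSR1 (0.66, adjusted p = 0.00172). All vehicle arrays of 24 h were of the higher background class and all of 12 h of the lower, so time and background class cannot be told apart here. At 48 h, in the same class as 12 h, NOLC1 (−0.42) and GNL3L (−0.63) were lower and NOP2 (0.49) was higher, where 13.6% of all genes were lower and 12% higher. These 3 of 41 members are a smaller share than that of all genes. With background class as a block, 0 members passed at 24 h in place of 11. Only the pioglitazone group of 48 h held arrays of both classes, so the block rests on its replicate 3. The loss of these calls therefore cannot separate class from time. The vehicle arrays of these comparisons also enter the drug effects.

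The other genes of the pathway, 132 drawn from general knowledge by role, of which 126 were tested, were lower in larger numbers than higher. Of these, 8 were lower and 1 higher at 12 h, 43 lower and 1 higher at 24 h, and 39 lower and 5 higher at 48 h (6.35%, 34.1% and 31% lower, beside 4.48%, 12.8% and 15.4% of all genes). The share at 12 h was near that of all genes. Their medians were −0.14, −0.32 and −0.18. Of these, 4 were lower at all 3 times, namely DDX47 and DDX56, both RNA helicases, EXOSC2, a subunit of the RNA exosome, and UTP11, a processome component. At 12 h the lowest were URB2 (−0.72, adjusted p = 0.00159) and EXOSC2 (−0.56, adjusted p = 0.00374), with DDX54 at −0.55 and DDX47 at −0.43, and ZNF622 was the 1 higher (0.37). With 1 array of 12 h left out, 4 to 6 of the 126 were lower, beside 281 to 374 of all genes.

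At 24 h 14 of 46 other large subunit factors were lower, led by URB2 (−0.92, adjusted p = 6.21e-05), MAK16 (−0.61) and NLE1 (−0.59). Of 45 small subunit factors 16 were lower, led by NOL6 (−0.88, adjusted p = 0.00015), WDR3 (−0.68) and NOL11 (−0.67). Of 12 exosome and exonuclease genes 5 were lower, with EXOSC2 and EXOSC8 both at −0.75 and EXOSC9 at −0.70. Of 11 snoRNP assembly genes 3 were lower (NUFIP1 −0.65, ZNHIT6 −0.63 and NAF1 −0.39) and NOPCHAP1 was higher (0.45). Of the 12 other genes of RNA polymerase I and its initiation factors, 5 were lower at 24 h. TAF1A (−0.65, adjusted p = 0.00654), POLR1G (−0.65, adjusted p = 0.0418) and POLR1E (−0.49, adjusted p = 0.00196) led these. No test set these genes against the member subunits.

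At 48 h POLR1G (−1.06, adjusted p = 0.00155), POLR1E (−0.64) and POLR1H (−0.48) were lower and TAF1D (0.54) and TTF1 (0.49) higher, the latter a terminator of RNA polymerase I transcription. Of the large subunit factors 14 of 46 were lower, led by LAS1L (−0.72), SENP3 (−0.62) and NOL12 (−0.62). Of the small subunit factors 14 of 45 were lower, led by NOL6 (−0.72), NAT10 (−0.68) and BMS1 (−0.67), and ABT1 (0.65), TSR3 (0.44) and EMG1 (0.40) were higher. EXOSC5 (−0.68) and EXOSC2 (−0.64) led 4 of 12 exosome and exonuclease genes. PIH1D1 (−0.73) and RUVBL2 (−0.57), partners in the R2TP chaperone complex that helps assemble snoRNPs, led 4 of 11 assembly genes.

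**Figure D4:**
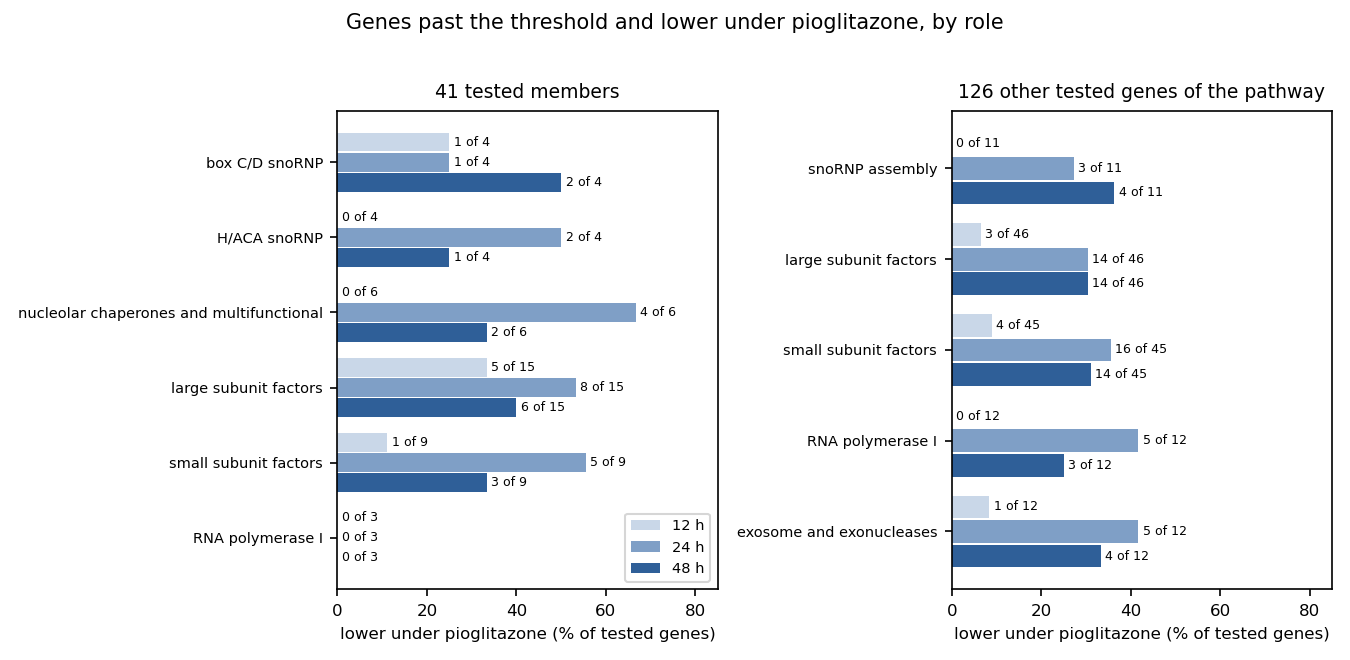
Bars give the percentage of tested genes that passed the test and were lower under pioglitazone (x axis, from 0) in each role (y axis) at 12, 24 and 48 h, for the 41 members on the left and the 126 other genes on the right, with the counts beside each bar. At 24 h 8 of 15 large subunit members and 14 of 46 other large subunit factors were lower; RNA polymerase I had 0 of 3 and 5 of 12.

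MYC itself, the best known activator of these genes, did not pass at any time (0.12, −0.05 and −0.22, adjusted p = 0.561, 0.768 and 0.132). Of the MYC network 9 of 10 genes were tested. MXD1 (0.46, adjusted p = 0.00744) was higher at 12 h and MXD4 (0.67, adjusted p = 0.00163) at 24 h. At 48 h MXD3 was lower (−1.59), as was MAX (−0.41), and MYCL (0.54) and MXI1 (0.51) were higher. MNT was at 0.25, −0.10 and 0.31, and MLX at −0.22, −0.22 and 0.08, without passing. These values stand beside the members' falls, and a link between them was not tested.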

How the data were processed

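Total RNA of 1 cell line was measured on 18 Illumina HumanHT-12 v4 arrays, labelled in 1 colour. The authors deposited for each array an unnormalised intensity and a detection p-value of 47323 probes. The submitters' processing notes name GenomeStudio for this export. The sources used here give neither its version nor the method behind the normalised intensities that the authors also deposited. The detection p-values moved in steps of 1 in 770.

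With neqc of limma 3.58.1 in R 4.3.3, the intensities were corrected for background from the detection p-values (offset 16), quantile-normalised and taken to log2. Probes with a detection p-value under 0.01 on at least 3 arrays were kept. Platform annotation gave 30113 probes 1 symbol, 8 several and 17202 none, and the RefSeq gene table of GRCh38.p14 changed 0 of these symbols. Where a gene had several kept probes, the one with the highest mean signal stood for it. Of the members' 67 probes 60 were kept, and 13 tested members had more than 1 kept probe.

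Group means of all 18 arrays were fitted with lmFit and eBayes (12 residual degrees of freedom), and p-values were adjusted over 11680 genes by the Benjamini-Hochberg method. The comparisons were pioglitazone against vehicle at each time, the differences between these effects, and vehicle at 24 and 48 h against 12 h. Precision is limited by the number of arrays. The members, the gene lists and the tests were chosen with earlier results of these data known. Values on each array were given for, at each time, up to 6 lowest and 4 highest members past the threshold whose groups did not overlap, and for members whose effect differed between times. Other probes were given where they differed in direction or by over 0.5, and for some genes besides. For the other genes of the pathway, up to 3 for each direction, role and time were named. The fit was tested on simulated data. A set of 11 alternative settings was run, besides leaving out each array. Same-numbered replicates did not deviate together (9 pairs, correlations of −0.257 to 0.091), so the numbers were not used to pair arrays.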

Additional observations from a re-analysis of the deposited data

Results flagged for a closer look

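The effect of pioglitazone on LYAR differed between times by the test of the difference itself. It was −0.36 at 12 h and −1.18 at 24 h, a difference of −0.821558 (SE 0.18, limma adjusted p = 0.0435). Across 22 alternatives the difference ran from −0.95 to −0.69 with adjusted p-values of 0.00133 to 0.133, and 13 of them left it above the threshold. Its second probe gave −0.30 and −1.06 at the same times. The arrays of 24 h were of the higher background class and those of 12 h of the lower, and the part of that class in the difference was not tested.

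The effect on DDX21 differed between 24 and 48 h, being −0.53 at 24 h and 0.26 at 48 h, a difference of 0.795897 (SE 0.21, limma adjusted p = 0.0482). Across 22 alternatives it ran from 0.65 to 0.93 with adjusted p-values of 0.0152 to 0.132, and 13 left it above the threshold. The vehicle mean was 11.46 at 24 h and 10.92 at 48 h, and the pioglitazone mean 10.92 and 11.18. All arrays of 24 h were of the higher background class, and those of 48 h except pioglitazone replicate 3 of the lower. The call was lost with class as a block, which rests on that replicate and cannot separate class from time. The highest treated value at 48 h (11.48) came from replicate 3, whose undetected probes were in the higher background class. That array also had the lowest array weight of the 18 (0.13). Dixon's test for an outlying sample was not applied to groups of 3.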

How the results depend on the processing

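Of 42 member calls at the 3 times and 2 calls of a difference between times, 22 kept their side of the threshold under every alternative. Over 758 recomputed values 654 kept the call, 104 lost it and 0 reversed. With array weights, whose estimation stopped before it converged, lower members numbered 13 at 12 h, 27 at 24 h and 18 at 48 h, members changed in vehicle 20 and 9, and members with a differing effect 11 (12 and 24 h), 3 (24 and 48 h) and 3 (12 and 48 h). All genes lower and higher were then 1325 and 1202 at 12 h, 3069 and 2711 at 24 h, and 1871 and 1601 at 48 h. For vehicle changes and differing effects, all genes passing were not counted under the alternatives. The member counts of these 2 kinds, here and below, therefore have no baseline. The fit of 48 h alone gave 6 lower members, with 833 of all genes lower and 688 higher. Without background correction the median difference was −0.18 at 12 h and −0.27 at 24 h, with an offset of 50 −0.33 at 24 h, and with median scaling −0.22 and −0.36. Median scaling left 1223 genes lower and 1496 higher at 24 h, in place of 1499 and 1226. Between 12 and 24 h the effect differed in 2 members without background correction, with an offset of 50 and with background class as a block, and in 0 with median scaling or without a detection filter. Between 24 and 48 h it differed in 0 without a detection filter, with the replicate block and with the class block. Between 12 and 48 h it differed in 4 without background correction and with an offset of 50, in 2 with the stricter filter, the mean of kept probes or the replicate block, and in 1 with the authors' table or the class block. The class block gave 0 members changed in vehicle at 24 h, 5 at 48 h, and 856 of all genes lower and 779 higher at 12 h. That block rests on replicate 3 of pioglitazone at 48 h alone. With 1 array left out, lower members numbered 2 to 4, 15 to 19 and 11 to 16 at the 3 times (higher 0, 1 and 0). Of all genes, 281 to 374, 1020 to 1378 and 1468 to 1876 were then lower, and 306 to 401 were higher at 12 h. Member medians ran from −0.22 to −0.19, −0.39 to −0.33 and −0.26 to −0.23. Members with differing effects numbered 0 to 2, and those with vehicle changes 6 to 11 and 2 to 5. Leaving out 1 array also ended the calls of NIP7 (vehicle replicate 2, pioglitazone 1 or 2) and NOP58 (replicate 2 of either) at 12 h, NOLC1 (vehicle 1, pioglitazone 2) and DDX21 (vehicle 3, pioglitazone 2) at 24 h, and BRIX1 (vehicle 2) at 48 h. The causes were not tested. Replicate numbers did not pair the arrays (0 of 9 pairs correlated over 0.1, and 2 vehicle arrays correlated best with their own number). The replicate block gave 6, 20 and 14 lower members. Of the 126 other genes, lower counts ran from 4 (replicate block) to 33 (array weights) at 12 h, 31 to 73 at 24 h and 10 (48 h alone) to 43 at 48 h. The 3 arrays of a group limit every count.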
